A study of Mus musculus with 12 samples.

Results

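The 52 genes described here were chosen by their own RNA levels in 3T3-L1 adipocytes, from 27473 features counted. A gene was taken when its mean level stayed under 1 CPM in both control groups and was at least 1 CPM, and at least 2 times each control mean, in cells with a hairpin against Dnmt3a. CPM is the count of a gene divided by the total count of its library, times 1e6. Another 7 features met the same values but were left out by name (P2rx7, Fgf21, Serpinb1a, Serpinb6b, Serpinb9e, Serpinb9f and Serpinb9g). Because the levels in the hairpin cells and in both controls chose the genes, those levels are given as a description without a test.

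The study asked which genes of fat cells depend on Dnmt3a, and RNA-seq was done on 12 libraries, 3 in each of 4 groups. All were 3T3-L1 cells, an established mouse preadipocyte line, differentiated to adipocytes and transduced with lentivirus on day 8. The shDnmt3a cells carried a hairpin against Dnmt3a and the shScr cells a scrambled hairpin. The Dnmt3a cells carried a Dnmt3a cDNA in the pCDH vector and the GFP cells carried GFP in the same vector, and RNA was taken 4 days after transduction in every group. The sources used here do not say which of the study's Dnmt3a hairpins these cells carried. They also do not say whether the libraries came from separate cultures, so a p-value covers the spread among libraries, which may be technical. Total counts ran between 29084732 and 47341091 a library. Dnmt3a itself averaged 40.3 ± 0.727 CPM in shDnmt3a and 83.4 ± 4.10 CPM in shScr cells (SD, n = 3 each), and 2655 ± 39.0 CPM in Dnmt3a and 94.2 ± 3.54 CPM in GFP cells, where reads of the cDNA count too. Summed over 8 adipocyte markers the level was 12140 to 12510 CPM in shDnmt3a and 13010 to 13830 CPM in shScr libraries.

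Dnmt3a is a de novo DNA methyltransferase: it adds methyl groups to cytosines that stand before a guanine (CpG). A densely methylated CpG-rich promoter is usually inactive, whereas promoters with few CpGs are less strictly tied to their methylation. Genes specific to other tissues are often methylated in a differentiated cell and give little RNA there. Methylation itself was not measured in these libraries.

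The genes were low in the controls, not silent. In 48 of the 52, each of the 6 control libraries held at least 5 counts, and in 27 of them at least 10. Only Pnliprp1 had a control library without a count. Counts per gene and library had a median of 61 in shDnmt3a, 16 in shScr (between 1 and 42) and 19 in GFP cells (between 0 and 53). The median over the genes of the mean level was 1.64 CPM in shDnmt3a, against 0.506 CPM in shScr and 0.469 CPM in GFP cells. They are therefore called low-level genes below.

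**Figure D1:**
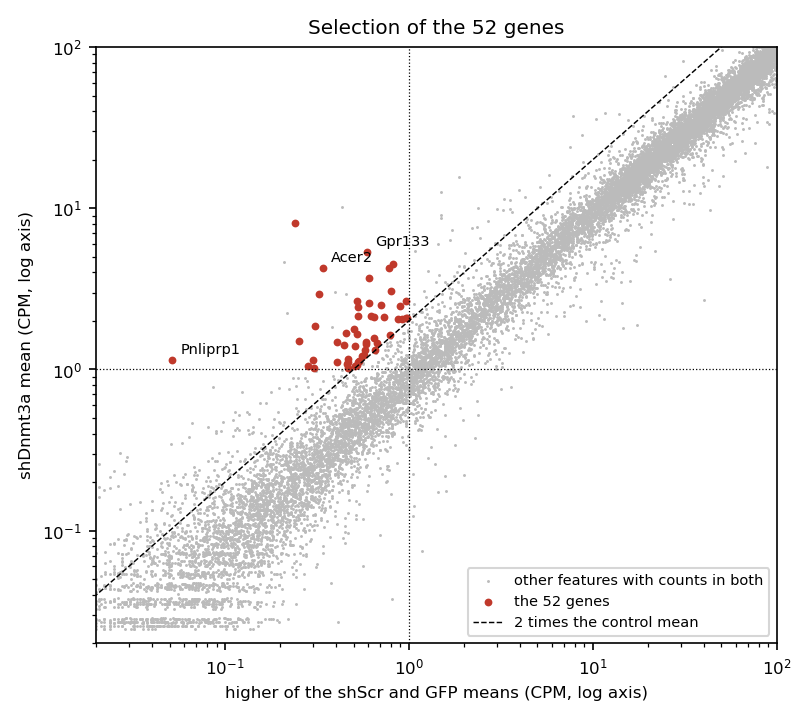
Mean level of each feature in shDnmt3a cells (vertical, CPM, log axis) against the higher of the shScr and GFP means (horizontal, CPM, log axis). Red points are the 52 low-level genes, which fill the field left of 1 CPM, above 1 CPM and above the dashed line of 2 times the control mean, and the 7 grey points in that field are the features left out by name.

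Sequence upstream of the gene start was at hand for 26 of the 52 genes, in the RefSeq promoter table of build GRCm38.p6. The windows of Acer2, Ehhadh, Pnliprp1, Cyp4a32 and Apoa4 are shown because they belong to the genes with the largest ratios and to those of fatty acid and lipoprotein metabolism in that table. Each is the 250 bases before the start, 5′ to 3′ on the strand of the gene, with every CpG in capitals, so that the contrast between CpG-rich and CpG-poor starts can be read directly.
Acer2: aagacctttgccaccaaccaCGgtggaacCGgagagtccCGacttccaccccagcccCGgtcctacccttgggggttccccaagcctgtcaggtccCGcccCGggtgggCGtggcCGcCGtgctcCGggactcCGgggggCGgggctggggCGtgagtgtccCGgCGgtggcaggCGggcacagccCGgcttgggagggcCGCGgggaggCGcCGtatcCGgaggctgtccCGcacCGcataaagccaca
Ehhadh: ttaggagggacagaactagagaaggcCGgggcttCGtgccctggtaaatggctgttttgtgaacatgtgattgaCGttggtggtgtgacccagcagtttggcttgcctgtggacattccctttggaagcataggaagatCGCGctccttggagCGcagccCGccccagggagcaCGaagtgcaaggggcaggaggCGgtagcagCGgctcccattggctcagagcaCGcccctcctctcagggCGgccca
Pnliprp1: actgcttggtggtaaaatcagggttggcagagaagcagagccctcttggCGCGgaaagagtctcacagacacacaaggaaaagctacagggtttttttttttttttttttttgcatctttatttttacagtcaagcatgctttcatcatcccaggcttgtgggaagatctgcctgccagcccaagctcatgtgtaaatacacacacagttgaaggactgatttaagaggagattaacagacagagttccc
Cyp4a32: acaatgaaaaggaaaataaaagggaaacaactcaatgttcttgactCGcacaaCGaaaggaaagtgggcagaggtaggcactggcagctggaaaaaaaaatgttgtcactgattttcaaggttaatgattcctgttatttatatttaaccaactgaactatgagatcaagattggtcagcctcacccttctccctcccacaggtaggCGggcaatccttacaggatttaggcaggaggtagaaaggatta
Apoa4: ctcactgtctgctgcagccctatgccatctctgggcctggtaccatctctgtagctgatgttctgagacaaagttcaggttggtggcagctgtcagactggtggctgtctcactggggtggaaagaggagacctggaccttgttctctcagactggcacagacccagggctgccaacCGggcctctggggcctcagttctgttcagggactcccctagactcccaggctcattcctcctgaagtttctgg
The Acer2 window (chr4:86874164-86874413, plus strand) held 24 CpGs and the Ehhadh window (chr16:21787835-21788084, minus strand) 12. The Pnliprp1 window (chr19:58728637-58728886, plus strand) held 2, the Cyp4a32 window (chr4:115600688-115600937, plus strand) 3 and the Apoa4 window (chr9:46240594-46240843, plus strand) 1. Genes with dense and with sparse CpG thus both stood among those with the largest ratios.

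Summed over the 52 genes, the level was 106 to 109.5 CPM in the shDnmt3a libraries, against 25.9 to 26.4 CPM in shScr, 26.6 to 29.4 CPM in Dnmt3a and 24.4 to 26.8 CPM in GFP libraries. A change in the share of cells that make an RNA and a change in its amount per cell cannot be told apart in RNA from a whole culture. The ratio of the shDnmt3a mean to the higher control mean had a median of 3.04. It was at least 3 in 26 genes, at least 5 in 11 and at least 10 in 3. In all 52 every shDnmt3a library lay above every shScr and GFP library, as it did in 11.1% of the 20134 features with a count in these 9 libraries, but the rule itself favours such genes and nothing is read from that count. The spread within shDnmt3a was modest, with a coefficient of variation between 1.51% and 35.1% (median 13.2%). Even in shDnmt3a cells most stayed low, since 22 of the 52 averaged at least 2 CPM and 2 at least 5 CPM. Levels of different genes can be compared per length: in shDnmt3a cells CPM per kb ran between 0.143 for Hs3st3a1 and 4.15 for Ang3, with Apoc3 at 2.83 and Siglec15 at 2.06.

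**Figure D2:**
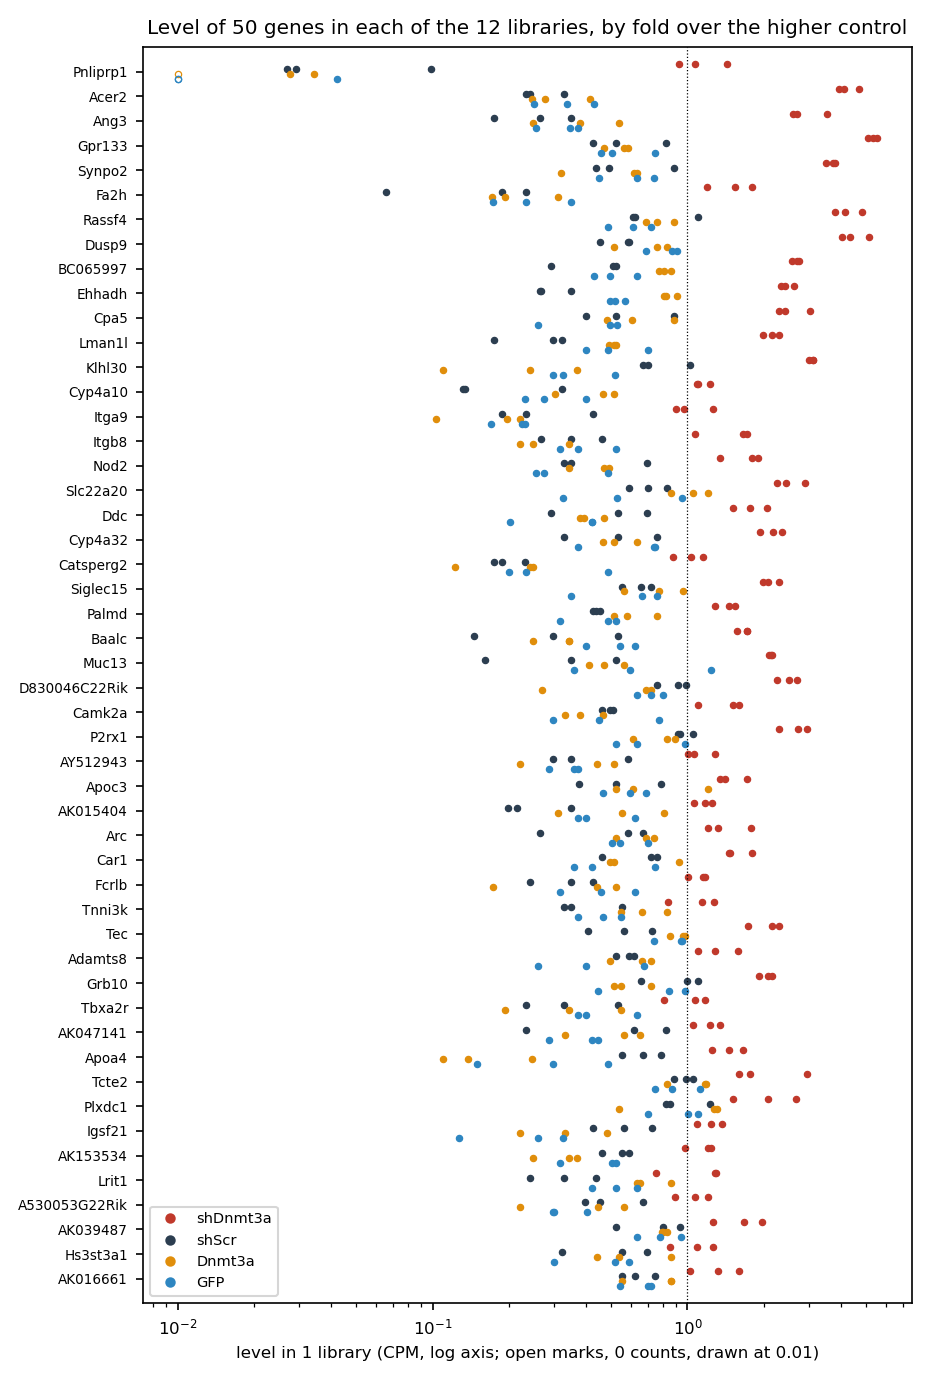
Level of 50 of the 52 genes in each library (horizontal, CPM, log axis), with genes ordered from the largest ratio of shDnmt3a to the higher control mean at the top. Each point is 1 library, open points are 0 counts, and the dotted line marks 1 CPM. The red shDnmt3a points lie right of every shScr and GFP point in all rows.

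Of 31 genes found on the list of PPAR targets and fatty acid oxidation, the longest of the role lists, 6 were among the 52. Over all 27473 features 52 were taken, all from the 8113 that had a count and averaged under 1 CPM in both controls. The list was drawn up with earlier results of these libraries known, so nothing is read from its count. Of the 6, 5 are described here. Ehhadh, the bifunctional enzyme of peroxisomal fatty acid oxidation, was at 2.32, 2.42 and 2.63 CPM in shDnmt3a, against 0.35, 0.267 and 0.263 CPM in shScr and 0.57, 0.498 and 0.517 CPM in GFP cells. Its shScr libraries were the lowest and its GFP libraries stood between, so its log2 fold change of 3.06 ± 0.23 (SE) against shScr was larger than that against GFP, 2.2 ± 0.2.

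Cyp4a10 and Cyp4a32 are cytochromes that hydroxylate the end of a fatty acid chain, and Cyp4a10 is a classic target of the nuclear receptor PPARα in mouse liver. Cyp4a10 was at 1.09, 1.1 and 1.23 CPM in shDnmt3a, against 0.321, 0.134 and 0.132 CPM in shScr and 0.401, 0.274 and 0.23 CPM in GFP cells. Cyp4a32 was at 1.93, 2.17 and 2.34 CPM in shDnmt3a, against 0.758, 0.535 and 0.329 CPM in shScr and 0.739, 0.747 and 0.374 CPM in GFP cells. Both stood apart from every control library. They lie 67.3 kb apart on chromosome 4, their sequences are alike, and the sources used here do not give how reads matching both were counted, so that their separate values are uncertain. Cyp4a31, between them, averaged only 0.111 CPM in shDnmt3a and 0.0110 CPM in shScr cells.

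Apoa4 and Apoc3 encode apolipoproteins made mainly by gut and liver, and the Apoc3 protein slows the breakdown of triglyceride-rich particles by lipoprotein lipase. Apoa4 was at 1.65, 1.25 and 1.46 CPM in shDnmt3a, against 0.554, 0.668 and 0.789 CPM in shScr and 0.296, 0.149 and 0.488 CPM in GFP cells. Apoc3 was at 1.71, 1.34 and 1.4 CPM in shDnmt3a, against 0.525, 0.374 and 0.789 CPM in shScr and 0.465, 0.598 and 0.69 CPM in GFP cells. Apoa4 was one of the genes whose controls differed most, with higher levels in each shScr library than in any GFP library. The pair lies 5.06 kb apart on chromosome 9. Their close neighbours Apoa1 and Apoa5 averaged under 0.1 CPM in every group, at 0.0740 and 0.0744 CPM in shDnmt3a, against 0.0584 and 0.0199 CPM in shScr cells.

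**Figure D3:**
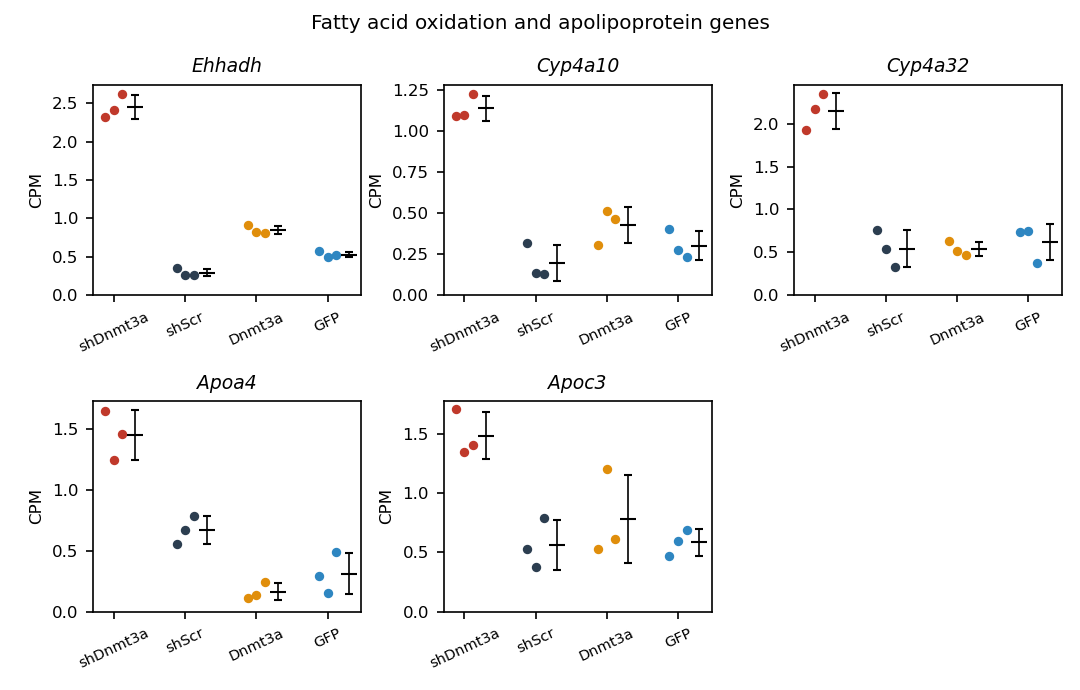
Levels (CPM, linear axes starting at 0) of Ehhadh, Cyp4a10, Cyp4a32, Apoa4 and Apoc3 in the shDnmt3a, shScr, Dnmt3a and GFP groups. Coloured points are the 3 libraries of a group, and the black marks are mean ± SD. The shDnmt3a points lie above all others in each panel, and for Ehhadh the Dnmt3a points, 0.810 to 0.910 CPM, also lie above those of GFP.

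Enzymes of sphingolipids and of fat breakdown made up another group. Acer2, a ceramidase of the Golgi that releases sphingosine, was at 4.11, 4.69 and 3.91 CPM in shDnmt3a, against 0.233, 0.241 and 0.329 CPM in shScr and 0.338, 0.249 and 0.431 CPM in GFP cells. Fa2h, which adds a hydroxyl group to the fatty acids of sphingolipids, was at 1.79, 1.2 and 1.54 CPM in shDnmt3a, against 0.233, 0.187 and 0.0658 CPM in shScr and 0.232, 0.349 and 0.172 CPM in GFP cells. Both had large ratios to the higher control mean, 12.5 for Acer2 and 6.01 for Fa2h. The Acer2 values are those of 1 of the 2 features with this symbol. With counts summed over features of 1 symbol, the same 52 genes met the rule. Pnliprp1, a relative of pancreatic lipase with little lipase activity of its own, held 33, 44 and 50 counts in shDnmt3a, against 1, 1 and 3 counts in shScr and 2, 0 and 0 counts in GFP libraries. With so few control counts its ratio is best given with its counting interval, which was 23.2 (95% exact interval 9.69 to 72.7) against shScr and 69.5 (18.9 to 580.1) against GFP. The same counts chose the gene, which favours large ratios, so the intervals describe counting error only and are no test. The fitted log2 fold change of Pnliprp1 against shScr was 4.45 ± 0.45, and 5.20 when shScr replicate 3 was left out.

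Receptors and signalling proteins included several genes with large ratios. Gpr133, an adhesion G protein-coupled receptor, was at 5.54, 5.32 and 5.08 CPM in shDnmt3a, against 0.525, 0.428 and 0.822 CPM in shScr and 0.507, 0.747 and 0.46 CPM in GFP cells. Dusp9, a phosphatase that switches off MAP kinases, was at 4.03, 4.34 and 5.14 CPM in shDnmt3a, against 0.583, 0.455 and 0.592 CPM in shScr and 0.908, 0.872 and 0.69 CPM in GFP cells. In both, each shDnmt3a library was more than 4 times as high as any control library. Rassf4, of the Ras-association domain family, was at 3.8, 4.83 and 4.14 CPM in shDnmt3a, against 0.612, 1.1 and 0.625 CPM in shScr and 0.613, 0.722 and 0.488 CPM in GFP cells. It overlaps 8430408G22Rik, which is annotated on the opposite strand (chr6:116600702-116602865, NCBIM37) and averaged 12.6 ± 0.247 CPM in shDnmt3a and 1.49 ± 0.191 CPM in shScr cells. Since the strand setting of the counting is not given, reads of these genes cannot be told apart and the Rassf4 value is uncertain.

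The other signalling genes had smaller ratios. P2rx1, an ion channel opened by ATP, was at 2.29, 2.71 and 2.94 CPM in shDnmt3a, against 1.05, 0.936 and 0.921 CPM in shScr and 0.634, 0.523 and 0.977 CPM in GFP cells. Grb10, an adaptor that dampens signalling by the insulin and IGF1 receptors, was at 2.07, 2.15 and 1.91 CPM in shDnmt3a, against 0.991, 1.1 and 0.658 CPM in shScr and 0.444, 0.847 and 0.977 CPM in GFP cells. Its lowest shDnmt3a library was less than 2 times its highest control library, shScr replicate 2. Ddc, the decarboxylase that makes dopamine and serotonin, lies 32.5 kb from Grb10 on chromosome 11 and was at 1.51, 1.76 and 2.06 CPM in shDnmt3a, against 0.291, 0.535 and 0.691 CPM in shScr and 0.422, 0.423 and 0.201 CPM in GFP cells. Grb10 and Ddc are known as neighbours in an imprinted domain of the mouse genome. Of the other genes within 100 kb, Fignl1 averaged 4.49 CPM in shDnmt3a and 3.61 CPM in shScr cells and Ikzf1 had no count in either.

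Tec, a tyrosine kinase of blood cells, averaged 2.06 ± 0.289 CPM in shDnmt3a, against 0.564 ± 0.158 CPM in shScr and 0.878 ± 0.12 CPM in GFP cells (SD, n = 3 each, here and for the other means). Nod2, a sensor of bacterial cell wall fragments, averaged 1.67 ± 0.29 CPM in shDnmt3a, against 0.458 ± 0.206 CPM in shScr and 0.339 ± 0.13 CPM in GFP cells. Tbxa2r, the thromboxane receptor, averaged 1.02 ± 0.186 CPM in shDnmt3a, against 0.366 ± 0.154 CPM in shScr and 0.469 ± 0.142 CPM in GFP cells. In each of these genes every shDnmt3a library lay above every control library, as the rule favours. Siglec15, a sialic acid-binding lectin of osteoclasts, averaged 2.12 CPM in shDnmt3a and Fcrlb, a relative of Fc receptors, 1.11 CPM, and both were under 0.7 CPM in either control. Several of these are known from blood and immune cells, whose markers were looked up for that reason. Of 13 macrophage and leukocyte markers Emr1 and Tyrobp had no count in any library and Ptprc averaged 0.142 CPM in shDnmt3a and 0.154 CPM in shScr cells. The 13 summed to 38.2 to 39.0 CPM in shDnmt3a, against 33.6 to 35.8 CPM in shScr and 26.8 to 28.2 CPM in GFP libraries. Of 9 tested against shScr, 4 rose (Trem2, Cd74, Cd14 and Cd53) and 2 fell (Mpeg1 and Cd68). Cd53 averaged 11.4 CPM in shDnmt3a, 3.01 CPM in shScr and 3.295 CPM in GFP cells. In that order Trem2 averaged 3.49, 0.997 and 1.86 CPM, Cd74 6.21, 2.17 and 5.26 CPM and Cd14 6.257, 4.654 and 6.275 CPM. Mpeg1 averaged 5.765, 18.1 and 3.35 CPM, and Cd68 2.93, 3.755 and 4.95 CPM. Against GFP Cd14 thus stood no higher and Mpeg1 no lower. Of 12 neutrophil and mast cell markers 5 had no count, and the sum was 10.1 to 10.5 CPM in shDnmt3a and 4.93 to 6.18 CPM in shScr libraries, with 2 of 5 tested higher and 1 lower. The part of such cells in the levels of the low-level genes was not tested.

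Genes named for muscle and nerve formed a further group. Synpo2, an actin-binding protein of the muscle Z-disc, was at 3.8, 3.71 and 3.48 CPM in shDnmt3a, against 0.437, 0.882 and 0.493 CPM in shScr and 0.739, 0.448 and 0.632 CPM in GFP cells. Klhl30, a kelch family protein, was at 3.1, 3 and 3.11 CPM in shDnmt3a, against 0.7, 0.668 and 1.02 CPM in shScr and 0.296, 0.324 and 0.517 CPM in GFP cells. The ratio to the higher control mean was 6.04 for Synpo2 and 3.86 for Klhl30, and that of Klhl30 depends on the control, since each of its shScr libraries lay above each of its GFP libraries. Tnni3k, a kinase of heart muscle, averaged 1.08 ± 0.221 CPM in shDnmt3a, against 0.41 ± 0.125 CPM in shScr and 0.462 ± 0.0871 CPM in GFP cells, and Palmd, a paralemmin relative, averaged 1.43 ± 0.128 CPM in shDnmt3a, against 0.44 ± 0.0137 CPM in shScr and 0.442 ± 0.11 CPM in GFP cells.

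Among neuronal genes, Camk2a, a calcium-dependent kinase of synapses, was at 1.51, 1.1 and 1.6 CPM in shDnmt3a, against 0.496, 0.508 and 0.46 CPM in shScr and 0.296, 0.448 and 0.776 CPM in GFP cells. Arc, which is made after synaptic activity, was at 1.31, 1.78 and 1.2 CPM in shDnmt3a, against 0.583, 0.668 and 0.263 CPM in shScr and 0.507, 0.697 and 0.546 CPM in GFP cells. Baalc, a gene of brain and early blood cells, was at 1.71, 1.56 and 1.71 CPM in shDnmt3a, against 0.146, 0.535 and 0.296 CPM in shScr and 0.401, 0.623 and 0.546 CPM in GFP cells. Their shDnmt3a libraries all exceeded 1 CPM, and no control library did. Baalc was the gene, beside Pnliprp1, whose log2 fold change against shScr moved most when a library was left out, to 2.92 without shScr replicate 2, against 2.32 ± 0.30 with it. Lrit1, a leucine-rich protein of photoreceptors, averaged 1.11 ± 0.308 CPM in shDnmt3a, against 0.336 ± 0.0985 CPM in shScr and 0.526 ± 0.105 CPM in GFP cells, and Igsf21, an adhesion protein of synapses, averaged 1.23 ± 0.141 CPM in shDnmt3a, against 0.573 ± 0.151 CPM in shScr and 0.236 ± 0.1 CPM in GFP cells.

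Secreted, adhesion and transport proteins were the remaining group with known roles. Cpa5, a carboxypeptidase, was at 2.41, 3.03 and 2.29 CPM in shDnmt3a, against 0.525, 0.401 and 0.888 CPM in shScr and 0.528, 0.498 and 0.259 CPM in GFP cells. Muc13, a membrane mucin of gut epithelium, was at 2.13, 2.15 and 2.08 CPM in shDnmt3a, against 0.35, 0.16 and 0.526 CPM in shScr and 0.359, 0.598 and 1.24 CPM in GFP cells. Muc13 was the tightest of these in shDnmt3a, while its GFP libraries spread widely, with replicate 3 above 1 CPM. Itgb8, an integrin subunit that frees TGF-β from its latent form, averaged 1.48 ± 0.352 CPM in shDnmt3a, against 0.359 ± 0.0969 CPM in shScr and 0.404 ± 0.106 CPM in GFP cells, and Itga9, another integrin subunit, averaged 1.04 ± 0.189 CPM in shDnmt3a, against 0.283 ± 0.128 CPM in shScr and 0.208 ± 0.0336 CPM in GFP cells. Slc22a20, of the organic anion transporter family, was at 2.24, 2.88 and 2.43 CPM in shDnmt3a, against 0.7, 0.829 and 0.592 CPM in shScr and 0.528, 0.324 and 0.948 CPM in GFP cells. Adamts8, a secreted metalloprotease, Car1, a carbonic anhydrase, Hs3st3a1, a sulfotransferase of heparan sulfate, Catsperg2, a subunit of the sperm calcium channel, Plxdc1, a plexin-domain protein of vessels, and Lman1l, a relative of a cargo lectin, averaged between 1.02 CPM (Catsperg2) and 2.14 CPM (Lman1l) in shDnmt3a cells.

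Ang3 and BC065997 ranked high by ratio but are named without a role. The RefSeq table lists Ang3 as a synonym of Angpt4, yet the files hold Angpt4 as another feature, at 12.9 CPM in shDnmt3a, against 16.9 CPM in shScr and 16.2 CPM in GFP cells, so which gene the Ang3 value measures is uncertain. Ang3 was at 2.69, 3.54 and 2.6 CPM in shDnmt3a, against 0.175, 0.348 and 0.263 CPM in shScr and 0.254, 0.373 and 0.345 CPM in GFP cells. BC065997 was at 2.69, 2.56 and 2.74 CPM in shDnmt3a, against 0.291, 0.508 and 0.526 CPM in shScr and 0.634, 0.498 and 0.431 CPM in GFP cells. D830046C22Rik averaged 2.47 ± 0.22 CPM in shDnmt3a, against 0.889 ± 0.119 CPM in shScr and 0.72 ± 0.0855 CPM in GFP cells, and it overlaps Gpr146 and 3110082I17Rik, so that reads may be shared. The RefSeq table lists the name as a synonym of Gpr146, which the files count as a separate feature at 151.0 CPM in shDnmt3a, against 175.9 CPM in shScr and 115.1 CPM in GFP cells, so the value may be a part of Gpr146 reads. Tcte2, which overlaps Mllt4 on the other strand, averaged 2.1 ± 0.735 CPM in shDnmt3a, against 0.973 ± 0.0844 CPM in shScr and 0.913 ± 0.19 CPM in GFP cells. The rest were A530053G22Rik and 6 features named by sequence records (AY512943, AK015404, AK047141, AK153534, AK039487 and AK016661), whose shDnmt3a means lay between 1.06 and 1.62 CPM. All 7 had ratios under 3.

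How the other genes of these themes moved, taken from lists, differed between the lists. Of all 14115 genes tested by edgeR's quasi-likelihood test, 23.3% rose and 22.5% fell in shDnmt3a against shScr cells (adjusted p under 0.05), with a median log2 fold change of -0.00. A gene low in shScr cells passed the filter on low counts only through shDnmt3a, which favours rises on every list. Of 25 genes found on the list of PPAR targets and fatty acid oxidation but not among the 52, 18 were tested. Of these 18, 7 rose and 5 fell, and their median log2 fold change was 0.14. The largest rise was in Slc25a34, a mitochondrial carrier (1.89 ± 0.04, SE, adjusted p = 3.59e-17), which averaged 105.9 CPM in shDnmt3a, against 28.8 CPM in shScr and 57.5 CPM in GFP cells, so that its ratio depends on the control. Cpt1b, the muscle form of carnitine palmitoyltransferase, rose by 1.01 ± 0.09 (adjusted p = 3.65e-08). Acot1, an acyl-CoA thioesterase, was also among the 7 (1.05 ± 0.36). It passed the filter only through shDnmt3a, with 20, 21 and 20 counts there and 5, 10 and 12 counts in shScr libraries. Nothing is therefore read from its call. The dehydrogenases Acadl (-0.57 ± 0.04, adjusted p = 1.04e-09) and Acadm (-0.33 ± 0.03, adjusted p = 9.86e-08) and the carrier Slc25a20 (-0.34 ± 0.04, adjusted p = 1.56e-06) fell against shScr. Acadl averaged 96.7 CPM in shDnmt3a, 144.3 CPM in shScr and 101.1 CPM in GFP cells. In that order Acadm averaged 575.0, 729.3 and 545.2 CPM and Slc25a20 59.5, 75.8 and 50.6 CPM, so neither was below GFP in shDnmt3a cells. Acot1 averaged 0.548, 0.269 and 0.454 CPM, and Cpt1b 10.05, 4.996 and 3.36 CPM. Except for Cpt1b, the size or direction of these changes thus depends on the control.

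Of 15 neuronal list genes found outside the 52, 6 passed the filter, with a median of 1.52, and 5 of these rose. As the filter favours rises among genes low in shScr cells, nothing is read from that share. Nrn1, a protein of growing neurites, rose by 1.70 ± 0.05 (adjusted p = 5.79e-15) and Snap25, a protein of synaptic vesicle release, by 1.87 ± 0.18 (adjusted p = 7.99e-08). Of 23 epithelial and keratinocyte list genes found outside the 52, 16 were tested, with a median of 1.09. Of these 16, 13 rose and 3 were not called, under the same limit of the filter. Among the 13 was the protease inhibitor Slpi (2.93 ± 0.16, adjusted p = 1.54e-11), which also stood just outside the rule. These calls are against shScr, and the summed GFP level was higher than that of shScr on both lists. The neuronal genes found, members included, summed to 62.1 to 64.0 CPM in shDnmt3a, against 20.9 to 21.2 CPM in shScr and 31.9 to 33.0 CPM in GFP libraries. The epithelial genes found, with 1 member, summed to 194.0 to 200.8 CPM in shDnmt3a, against 85.7 to 91.4 CPM in shScr and 140.1 to 146.3 CPM in GFP libraries. Trp63, a transcription factor of squamous epithelium, was called higher against shScr but averaged 17.0 CPM in shDnmt3a, against 7.79 CPM in shScr and 22.1 CPM in GFP cells. Of 6 tested pancreatic digestive enzymes 2 rose, of 7 tested retina genes 2 and of 6 tested striated muscle genes 2. Of 10 tested germline genes that are methylated in somatic cells, 3 rose and 2 fell, with a median of -0.03, and none of the 26 found on that list was among the 52. The 52 are themselves few among the 27473 features, so nothing is read from that. All 26 hypoxia response genes found were tested and rose, with a median of 1.49. Their shScr means were all above 1 CPM, the lowest that of Ndrg1 (1.99 CPM), so the rule could take none of them. The hypoxia genes summed to 12350 to 12610 CPM in shDnmt3a, against 5024 to 5172 CPM in shScr and 8824 to 8892 CPM in GFP libraries. Whether that difference has a part in the levels of the low-level genes was not tested. The lists were drawn up with earlier results of these libraries known, so their counts are not independent evidence of a direction.

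The comparison that the choice of genes did not use as such is Dnmt3a against GFP, although its GFP libraries were part of the rule. Their mean had to be under 1 CPM, and the shDnmt3a mean at least 2 times as high. Genes whose GFP counts came out low were thereby favoured. That choice by itself leans the comparison towards higher Dnmt3a levels, so no effect is read from such a lean. In Dnmt3a cells the genes stayed near the GFP level: 32 of the 52 had a higher mean in Dnmt3a than in GFP cells and 20 a lower one, the median ratio was 1.16, and 49 stayed under 1 CPM. In edgeR's fit the median log2 fold change was 0.26 over the 46 that could be tested, against -0.0066 over all 14168 genes. In 50 of the 52 the highest Dnmt3a library lay below the lowest shDnmt3a library, the exceptions being Lrit1 and Hs3st3a1, as it did in 27.7% of the 19641 features with a count in these 6 libraries. The genes had been chosen for high shDnmt3a levels, so nothing is read from that count. Among the genes with the largest ratios, Acer2 was at 0.414, 0.275 and 0.245 CPM, Gpr133 at 0.469, 0.585 and 0.564 CPM and Dusp9 at 0.827, 0.516 and 0.76 CPM in Dnmt3a libraries, and Pnliprp1 had 1, 1 and 0 counts there. No gene was without counts in all Dnmt3a libraries. By edgeR's quasi-likelihood test on 14168 genes, 14.3% rose and 12.9% fell in Dnmt3a against GFP cells. Of the 52, 46 passed the filter on low counts, 2 rose and 0 fell, while 5 had an unadjusted p under 0.05, all of them higher in Dnmt3a cells. The median standard error of their log2 fold changes was 0.31, so that small differences could not be seen at this depth. Pnliprp1, Fa2h, Itga9, Catsperg2 and Apoa4 were among the 6 that did not pass the filter.

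The 2 genes that rose were Slc22a20 and Ehhadh. Slc22a20 was at 1.05, 0.86 and 1.2 CPM in Dnmt3a, against 0.528, 0.324 and 0.948 CPM in GFP cells, with a log2 fold change of 0.91 ± 0.29 (SE, edgeR adjusted p = 0.0164), and the groups overlapped in 1 library on either side. Ehhadh was at 0.91, 0.825 and 0.81 CPM in Dnmt3a, against 0.57, 0.498 and 0.517 CPM in GFP cells, with a log2 fold change of 0.74 ± 0.27 (edgeR adjusted p = 0.0364), and the groups did not overlap. Neither call held with DESeq2, which called 0 of the 46 at an adjusted p under 0.05 and 2 at an unadjusted p under 0.05. The call of Ehhadh was lost when any 1 of the 6 libraries was left out, at log2 fold changes between 0.68 and 0.80, and that of Slc22a20 without GFP replicate 1 (0.82), GFP replicate 2 (0.62) or Dnmt3a replicate 3 (0.78). Ehhadh thus averaged above its control in both arms, in which Dnmt3a was lowered and raised. Its levels in shDnmt3a and in both controls, GFP included, were part of how it was chosen. Adipocyte markers also differed in this arm: the 8 summed to 16680 to 17540 CPM in Dnmt3a, against 14030 to 14860 CPM in GFP libraries, and all 8 rose, with a median log2 fold change of 0.22. The part of that difference in the levels of Ehhadh and Slc22a20 was not tested. The nearest miss was BC065997, at 0.772, 0.86 and 0.81 CPM in Dnmt3a, against 0.634, 0.498 and 0.431 CPM in GFP cells (adjusted p = 0.0616).

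**Figure D4:**
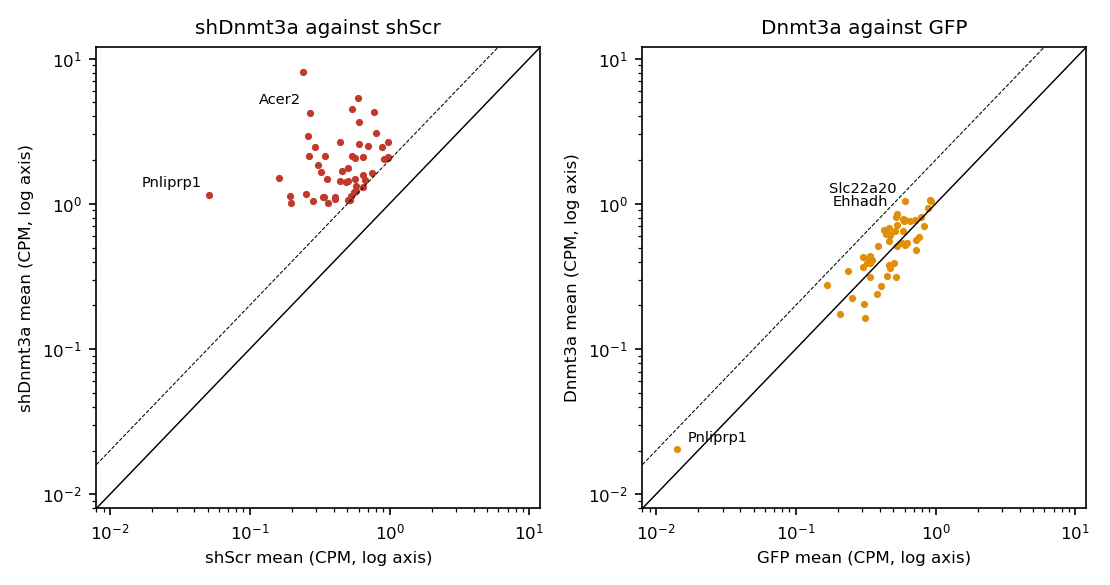
Mean level of each of the 52 genes in shDnmt3a against shScr cells (left) and in Dnmt3a against GFP cells (right), in CPM on log axes, with the line of equality (solid) and of a ratio of 2 (dashed). The genes lie above the dashed line on the left, where the rule placed them, and around the line of equality on the right, 32 above and 20 below it.

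The 2 controls differed from each other in single genes. The shScr mean was above the GFP mean in 26 genes and below it in 26. Klhl30, Igsf21 and Apoa4 averaged 0.796, 0.573 and 0.670 CPM in shScr, against 0.379, 0.236 and 0.311 CPM in GFP cells. Muc13, Ehhadh and Lman1l averaged 0.345, 0.293 and 0.264 CPM in shScr, against 0.731, 0.528 and 0.529 CPM in GFP cells. For these genes the size of the ratio depends on which control is used.

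In the annotation of NCBIM37, the build to which the reads were aligned, 44 of the 52 could be placed by symbol. All 44 were protein-coding and they lay on 19 chromosomes. The nearest tested gene had risen in 20 of the 44 (45.5%), against 23.6% of 12581 tested genes placed in the same way. Among the 40 whose nearest gene is not itself one of the 52, it had risen in 16 (40.0%). These shares are a description and carry no test. In 4 of them the neighbour rose by at least 1 on the log2 scale: 8430408G22Rik at Rassf4, Cpa1 at Cpa5, Slc6a7 at Camk2a and Gprin3 at A530053G22Rik, the last at a distance of 970059 bases. Cpa1, a pancreatic carboxypeptidase gene 7473 bases from Cpa5, was at 15.6, 16.4 and 14.9 CPM in shDnmt3a, against 1.55, 1.98 and 2.07 CPM in shScr cells (log2 fold change 3.08 ± 0.11, edgeR adjusted p = 2.33e-14).

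CpG content around the start was close to that of all placed genes with a count at such low control levels, as a description with no test. Within 500 bases to each side of the start, the CpG observed over expected was at least 0.6 in 11 of 44 genes (25%), with a median of 0.280. Among all placed genes under 1 CPM in both controls that had a count it was at least 0.6 in 24.3% (median 0.327, 6092 genes). Among all genes tested on knock-down it was at least 0.6 in 65.0% (median 0.701, 12581 genes). Most of these genes thus lacked a CpG-rich start, as did most other genes with a count at such control levels.

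**Figure D5:**
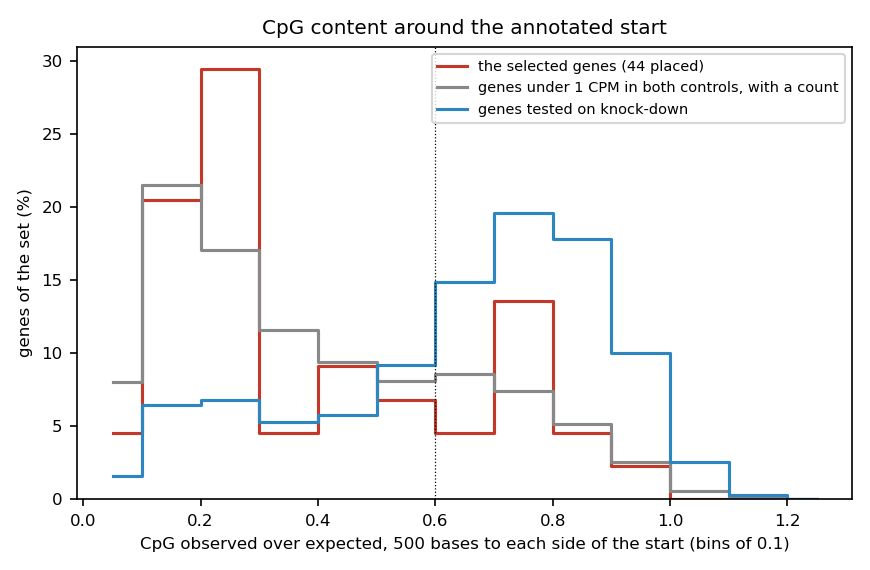
Share of genes (vertical, percent of each set) by CpG observed over expected around the start (horizontal, bins of 0.1) for the 44 placed low-level genes, all placed genes under 1 CPM in both controls that had a count and all placed genes tested on knock-down. The dotted line marks 0.6. The first 2 curves peak under 0.3, and the third above 0.7.

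In the 250 bases before the start, the RefSeq windows of the 26 matched genes (30 windows, since some have 2 starts) held a median of 5.5 CpGs, against 6.0 over all 32851 windows. Chromosome 18 was left out for the matched genes but not for all windows. The most CpGs, 40, stood in 1 of the windows of Grb10, and Lman1l, Lrit1, A530053G22Rik and 1 of the windows of Muc13 had 0. Short motifs were searched on both strands, and none of them contains another. ACGTG, the core of the hypoxia response element, was in 3 of 30 windows, against 16.6% of all. TATAAA was in 3, against 12.4%, and CCAAT in 11, against 33.8%. TGACTCA, the AP-1 site, was in 2, both of Muc13, against 4.46%. AGGTCA, the half-site of nuclear receptors, was in 5, against 14%, and these belong to Ddc, Muc13 and Tbxa2r only. The windows of Cyp4a32, Ehhadh and Apoa4 were not among them. A match, or the lack of one, is a description of letters and says nothing of a bound site.

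The edges of the rule were not gaps. At 1 CPM in shDnmt3a, Catsperg2 (1.02 CPM), Tbxa2r (1.02 CPM) and Itga9 (1.04 CPM) stood just inside, and Cck (0.997 CPM) and Capn3 (0.916 CPM) just outside. At 1 CPM in the higher control, Tcte2 (0.973 CPM), P2rx1 (0.969 CPM) and Plxdc1 (0.967 CPM) stood inside, and Slc6a7 (1.05 CPM), Calr4 (1.07 CPM) and Slpi (1.07 CPM) outside. At a ratio of 2, AK016661 (2.00), Hs3st3a1 (2.05) and AK039487 (2.06) stood inside, and Epha8 (1.96), A330040F15Rik (1.96) and Epn3 (1.94) outside. Of the 52, 35 met the rule whichever of the 9 libraries was left out.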

How the data were processed

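RNA-seq of 12 libraries of 3T3-L1 adipocytes was used, 3 in each of 4 groups taken from the labels. Ribosomal RNA had been removed with a Ribo-Zero kit, libraries made with a TruSeq RNA kit and sequenced on a HiSeq2500. According to the methods and processing notes, the authors aligned reads to mm9 with TopHat2 (2.0.14), handled them with Picard (2.2.4) and SAMtools (0.1.19), and counted them per transcript by featureCounts (1.4.6), using an annotation altered to lessen overlaps. What they deposited are raw read counts for each feature, without normalization. The strand setting and the treatment of reads with several matches are not given in the sources used here.

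CPM were taken over column totals, with the SD over 3 libraries. The 52 genes were those with a mean under 1 CPM in shScr and GFP, and at least 1 CPM and 2 times each control mean in shDnmt3a. The members, the gene lists and the tests were chosen with earlier results of these data known. Counts were scaled by TMM and tested across all genes passing edgeR's default filter (minimum count 10) with the quasi-likelihood F test of edgeR (version 4.0.16 in R 4.3.3), in a fit of its own for shDnmt3a against shScr, shDnmt3a against GFP and Dnmt3a against GFP, with Benjamini-Hochberg adjustment and a threshold of 0.05. The scripts were tested on simulated data. Standard errors are those matching the F statistic. Ratios of few counts carry exact 95% intervals, which cover counting error only. Alternatives were DESeq2 (1.42.0), its size factors, other filters, 1 fit of all 12 libraries, the replicate block and leaving out each library. Same-numbered libraries did not deviate together (correlations between -0.227 and -0.0278 in shDnmt3a and shScr, between -0.0266 and 0.0158 in Dnmt3a and GFP), so the numbers were not used as pairs.

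Genes were named by rule: the 15 highest in shDnmt3a, the 15 largest ratios, those on role lists, those called in Dnmt3a against GFP, the 3 nearest to each threshold on either side, and those within 100 kb of each other. The values of some genes that these rules take are not reported here. Other members, neighbours and list genes were named after their values were seen. Positions are from GENCODE on NCBIM37 (mm9), and 8 of the 52 symbols were not placed. CpG observed over expected was computed in the genome sequence of that build. Promoter windows are from RefSeq (GRCm38.p6). AGGTCA was added to the motifs after the data were seen. Of the 27473 features 7094 had no count, and 789 symbols stand on more than 1 feature, Acer2 among the 52.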

Additional observations from a re-analysis of the deposited data

How the results depend on the processing

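The choice of genes depended most on its thresholds: 17 genes met a control ceiling of 0.5 CPM and 14 a ratio of 4, against 52 for the rule as given, and all 17 and all 14 were among the 52. With TMM-scaled CPM 51 met the rule, with medians 52 (46 shared), and with 1 library left out 47 to 56. In Dnmt3a against GFP, 2 of the 52 were called, but 0 with DESeq2, 0 with a filter of 1 CPM in 3 libraries, under which only 2 of the 52 were tested, 3 in 1 fit of all libraries, and 0 to 1 with 1 library left out. Over all genes the call count was 3850, and 3063 to 3830 with 1 library left out. The replicate block gave 2 called members and 3853 called genes, so it changed no count by more than 1.5 times, and the largest factor by which it moved a fold change of the 52 against shScr was 1.02. The rule fixed the sign of the fold changes of the 52 against shScr, so only their size is described: of 520 under alternatives 2 moved by over 1.5 times, those of Baalc and Pnliprp1 without 1 shScr library. With at most 53 counts a control library, counting error limits what single control values of these genes can show. The alternatives for list counts were added after the data were seen.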
